A study of Rattus norvegicus with 3 samples.

Results

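The junction, adhesion and basement membrane genes of rat jejunum were followed from the crypt to the tip of the villus on a microarray. They were taken by gene symbol and comprise claudins, cadherins, catenins, desmosomal proteins, connexins, integrins, laminins and collagens. Such a symbol was carried by 40 of the 4379 named genes of the deposited table, on 44 of its 6653 probes. The 20 junction genes, 8 integrins and 9 matrix genes are described apart. The other 3, Ctnnbip1, Ctnnbl1 and Itgb1bp1, carry the start of such a symbol but encode no catenin or integrin chain themselves. They were kept out of the 37, although Ctnnbip1 and Itgb1bp1 act on such proteins.

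The epithelium of the villus is sealed by tight junctions near the apical surface, held together below them by adherens junctions and desmosomes, and coupled by gap junctions. It rests on a basement membrane of laminins and collagens, which its basal integrins grip. Cells are born in the crypt, travel up the villus on this membrane and are shed at the tip, so every one of these contacts has to be renewed or released on the way. Matrix collagens and some integrins belong to the mesenchyme, muscle, vessels and leukocytes under the epithelium.

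The tissue came from male Sprague-Dawley rats aged 6 weeks, for which the labels give no treatment. Frozen jejunum had been sectioned parallel to the surface at 10 µm, and every 10 sections made up a fraction of 100 µm, counted downwards from the villus tip. Fraction 1 was top villus, fraction 4 middle villus and fraction 6 crypt, of 7 fractions in a column. Each part had 1 sample, so differences could not be set against replicates and were not tested. The number of animals in a sample is not stated in the labels. A fraction holds epithelium together with the core of the villus or the tissue around the crypt, so fewer cells of a type and less RNA per cell cannot be told apart.

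Values are deposited log2 levels. A value in the lowest 25% of its column counted as dim, the level of which was 6.05 for crypt, 4.15 for middle villus and 5.15 for top villus. A difference against a dim value gives only a limit, marked by "at least". A gene was called higher or lower at 2-fold, a log2 difference of 1. The only measurable error was how far probes for a shared gene lay apart. Such probes share the same arrays, so this spread holds no variation between animals, dissections, labellings or arrays. Pooled, the SD of the probe spread on the log2 scale was 0.91 when the top was set against crypt, 0.90 when the middle was, and 1.05 within the villus. A gene with 1 probe therefore lay beyond 2 SDs at 3.55-fold, 3.49-fold and 4.27-fold. The median log2 difference of all named genes compared was -0.39 for top villus against crypt and -0.15 after median scaling, a shift of 0.24. It was -0.08 for middle villus against crypt. The labelled parts were checked against marker lists. The 8 enterocyte markers represented had a summed level of 12.5 on the log2 scale in crypt, 17.1 in the middle and 17.3 at the top. Among the 8 markers 7 were higher in the middle than in the crypt, and 6 were higher at the top with 1 lower. Anpep differed by -0.11 between top and crypt, and Si was at least 7.98-fold lower at the top than in the crypt and at least 55.7-fold lower than in the middle. The 5 markers of dividing crypt cells represented had 12.7, 7.90 and 7.52.

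At the top of the villus the junction genes, integrins and laminins lay mostly above the crypt. The greatest positive differences among genes measured in both parts were those of the integrin Itgb6, the laminin chain Lama5, the tight junction receptor F11r and the claudin Cldn7. The connexin Gjb2 was the only one of the 37 called lower, and its probe was bright in crypt and dim in both villus fractions. Of 33 genes compared 16 were higher at the top (48.5%), beside 23.9% of all named genes compared, and 1 was lower, beside 39.5%. At 4-fold 8 were higher, beside 12.1%, and 1 was lower, beside 22%. The other 4, Cldn15, Cdh2, Itga7 and Col15a1, were dim in all 3 parts. Of the 3 genes kept out of the 37, 0 were higher and 2 lower, Ctnnbl1 as a bound (-1.77) and Itgb1bp1 (-1.14). They were set apart with earlier results of these data known. All these shares and counts describe 1 sample of each part. In 7 of the 33 genes a dim probe made the difference a bound, and a gene that entered the comparison only because its level was high at the top could hardly be anything but higher there. Over the 26 genes measured in both parts the median log2 difference was 1.09, against -0.35 over the 2735 of all named genes. Beyond 2 SDs of the probe spread lay 9 genes on the higher side, Cldn7, Col17a1, Dsc2, F11r, Itgb2, Itgb6, Lama5, Pkp4 and Tjp1, and Gjb2 on the lower side.

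The promoters of the genes at the extremes of each class are shown to give their sequence context, 2 of junction genes that were higher at the top, the integrin and the laminin with the greatest differences, and Gjb2. They are RefSeq windows of the GRCr8 assembly from 250 bases before to 50 bases after the annotated start, read 5′ to 3′ on the strand of the gene. Cldn7 lies on the plus strand at chr10:55188420-55188719, F11r on the plus strand at chr13:86405979-86406278, Itgb6 on the minus strand at chr3:65530284-65530583, Lama5 on the minus strand at chr3:187695925-187696224 and Gjb2 on the minus strand at chr15:35381904-35382203. Capitals mark matches on either strand to any of 4 motifs. The TATA box was searched as TATAAA and the GC box as GGGCGG. The E-box bound by Snail repressors in the promoter of human and mouse E-cadherin was searched as CAGGTG. The AP-1 site was searched as TGANTCA. The motifs and the genes shown were chosen after the values had been seen.
Cldn7: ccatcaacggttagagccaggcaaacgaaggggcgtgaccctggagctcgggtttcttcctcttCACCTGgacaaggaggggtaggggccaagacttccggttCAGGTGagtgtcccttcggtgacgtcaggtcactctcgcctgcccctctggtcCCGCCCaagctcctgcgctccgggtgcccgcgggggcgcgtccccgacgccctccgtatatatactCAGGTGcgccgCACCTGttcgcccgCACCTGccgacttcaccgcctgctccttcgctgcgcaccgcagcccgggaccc
F11r: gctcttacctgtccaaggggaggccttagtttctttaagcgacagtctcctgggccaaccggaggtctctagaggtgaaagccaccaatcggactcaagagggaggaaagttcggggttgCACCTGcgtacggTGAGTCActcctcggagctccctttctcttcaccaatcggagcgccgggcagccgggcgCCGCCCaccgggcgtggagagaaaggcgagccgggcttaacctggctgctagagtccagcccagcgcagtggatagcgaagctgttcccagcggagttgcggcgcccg
Itgb6: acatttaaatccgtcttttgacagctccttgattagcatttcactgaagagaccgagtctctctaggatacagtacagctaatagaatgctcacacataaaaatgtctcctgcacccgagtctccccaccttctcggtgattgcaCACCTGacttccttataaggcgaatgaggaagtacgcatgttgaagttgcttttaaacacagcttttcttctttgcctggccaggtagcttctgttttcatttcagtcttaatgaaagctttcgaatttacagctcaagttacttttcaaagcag
Lama5: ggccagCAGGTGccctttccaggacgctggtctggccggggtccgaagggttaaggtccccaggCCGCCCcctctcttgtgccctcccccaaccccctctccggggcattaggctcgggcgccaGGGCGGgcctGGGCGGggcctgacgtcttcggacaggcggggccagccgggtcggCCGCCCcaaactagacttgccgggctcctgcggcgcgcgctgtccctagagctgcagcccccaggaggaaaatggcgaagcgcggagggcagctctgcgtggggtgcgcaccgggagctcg
Gjb2: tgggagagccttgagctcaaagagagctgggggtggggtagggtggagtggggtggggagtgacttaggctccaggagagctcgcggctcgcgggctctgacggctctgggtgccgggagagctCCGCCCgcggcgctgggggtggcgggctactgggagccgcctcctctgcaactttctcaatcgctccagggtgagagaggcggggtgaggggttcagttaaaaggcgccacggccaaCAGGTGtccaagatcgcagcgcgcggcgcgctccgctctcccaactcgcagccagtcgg
All 5 windows hold CAGGTG on 1 strand or the other, 5 times in Cldn7 and once in each of the others. GGGCGG stands 4 times in Lama5, once in Cldn7, F11r and Gjb2 and not in Itgb6, and TGANTCA in F11r alone of the 5. None holds TATAAA. Of the 37 genes 24 were found in the table of windows, and 11 of the 24 hold CAGGTG (45.8%), beside 18.8% of all 33469 windows and 18.9% of the 21842 of protein-coding genes. The count for GGGCGG was also 11 (45.8%), beside 33.1% and 41.8%. For TATAAA it was 3 (12.5%, beside 14.2% and 13.0%) and for TGANTCA 2 (8.33%, beside 7.33% and 6.53%). CAGGTG stands in windows of genes on opposite sides of the comparison, Gjb2 included. A match is a run of letters and not a site shown to be bound.

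Of the 6 tight junction genes compared 3 were higher at the top than in the crypt and none was lower, beside 23.9% and 39.5% of all named genes. F11r encodes a junctional adhesion molecule of the immunoglobulin family. Its level was 11.07 in crypt, 12.54 in the middle and 14.37 at the top, each part above the one below it by more than 2-fold, with a difference of 3.30 between the ends (9.86-fold). Cldn7, a claudin found along the lateral membrane as well as in tight junctions, followed the same course. Its level was 11.42 in crypt, 12.45 in the middle and 14.46 at the top, a difference of 3.03 (8.18-fold). Tjp1, the scaffold that ties claudins and occludin to actin, was at 6.67 in crypt, 7.25 in the middle and 9.20 at the top. Its lower step of 0.58 was within the limit, and its upper step of 1.96 made up most of the difference of 2.53 (5.79-fold). Under quantile normalization the whole difference of Tjp1 was 3.18, and its lower step of 1.13 passed the limit. The upper step of F11r was then 1.21 in place of 1.82.

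The other tight junction genes did not share that course. Occludin (Ocln), a membrane protein of the same strands, was highest in the middle, at 7.27 in crypt, 8.60 in the middle and 7.34 at the top. Its lower step was 1.32 and its upper step -1.26, which fell within the limit under median scaling (-0.99) and quantile normalization (-0.97). Cldnd1, a claudin-domain protein, was at 6.35 in crypt, 7.85 in the middle and 7.21 at the top, and only its lower step of 1.50 was called. Under quantile normalization that step was 2.16 and top villus also passed the limit against crypt (1.77). Cldn3, a sealing claudin, was at 12.32 in crypt, 11.98 in the middle and 13.13 at the top. Its upper step of 1.15 was called as deposited and not under quantile normalization (0.77). Top against crypt was 0.81, and 1.06, past the limit, under median scaling. Cldn15, which forms paracellular sodium channels in the small intestine, was dim in every part.

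**Figure D1:**
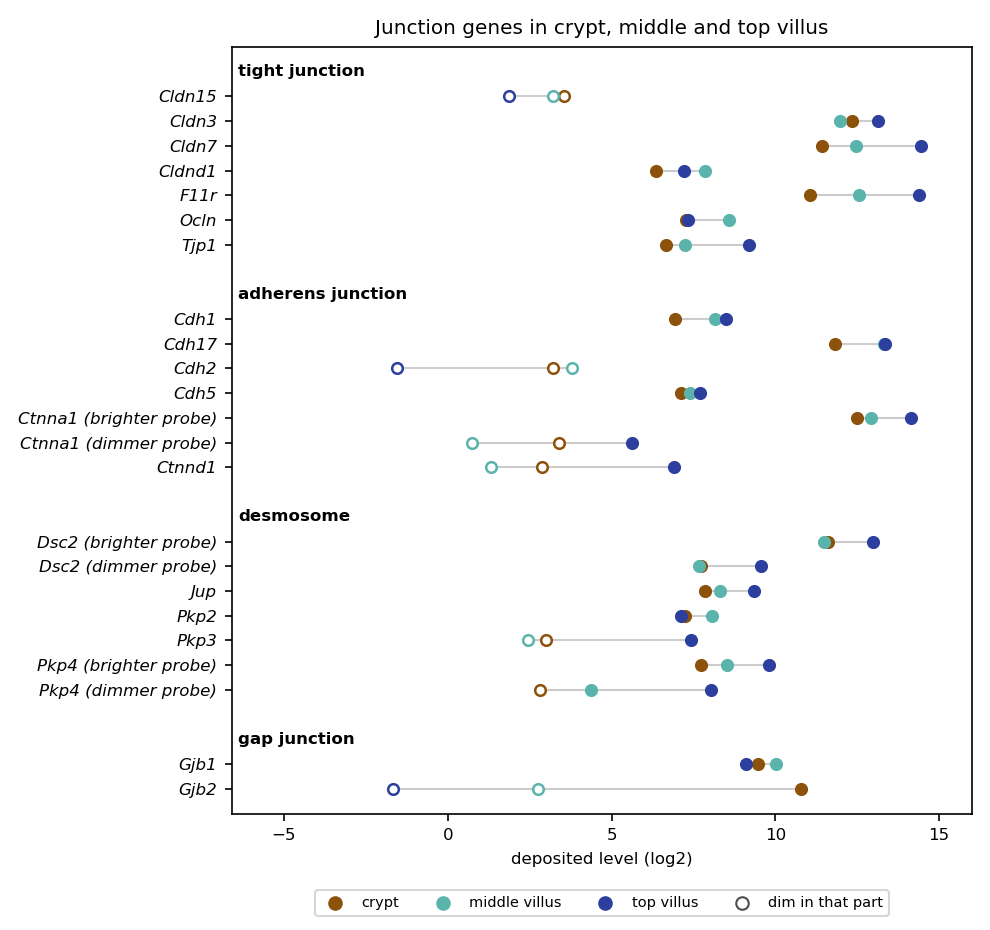
Deposited log2 levels of the junction genes (x axis) by probe (y axis), grouped by junction type, with 1 point a part (crypt, middle and top villus); filled points were measured, open points were dim in that part, and a grey line joins the lowest and highest part. F11r, Cldn7 and Tjp1 have their top villus point farthest right, and Gjb2 is the 1 gene whose crypt point lies far right of the other parts (10.78 against 2.76 and -1.67).

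Among the adherens junction genes the epithelial cadherins stood higher on the villus than in the crypt. Cdh1 (E-cadherin), the homophilic adhesion molecule of the epithelium, was at 6.92 in crypt, 8.15 in the middle and 8.50 at the top, 3.00-fold higher at the top than in the crypt. Cdh17 (liver-intestine cadherin), which has no catenin-binding tail, was at 11.82, 13.33 and 13.34 in the same order, 2.88-fold higher. Both differed in the lower step, by 1.23 and 1.51, and not in the upper one, by 0.35 and 0.02 (-0.68 for Cdh17 under quantile normalization). Each is a difference inside 2 SDs of the probe spread. The catenins, which bind cadherin tails, were dim in part. The brighter of 2 probes for Ctnna1 (alpha-catenin) was at 12.50 in crypt, 12.91 in the middle and 14.13 at the top, and the dimmer at 3.38, 0.73 and 5.61, measured only at the top. The mean upper step was at least 1.35 and fell within the limit under quantile normalization (0.55). Top against crypt was at least 0.82 as the mean of both probes and 1.63 on the brighter alone. Ctnnd1, the catenin that stabilizes cadherins at the surface, was at 2.87 in crypt, 1.32 in the middle and 6.92 at the top. It was measured at the top alone, at least 6.83-fold above the middle and at least 1.83-fold above the crypt, the latter within the limit. Its upper step was 0.92 with a common dim level of log2 6, and under quantile normalization both differences were at least 1.96. Under median scaling its difference between top and crypt was at least 1.12, past the limit. Cdh5, the endothelial cadherin, lay at 7.13, 7.41 and 7.70 and differed by less than 2-fold in each comparison. Under quantile normalization its difference between top and crypt was 1.04, past the limit. Cdh2 was dim throughout.

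Of the 5 desmosome genes 4 were higher at the top than in the crypt, beside 23.9% of all named genes, Pkp3 and Pkp4 among them as bounds. None of the 4 compared in the lower step was called, beside 19.1% higher and 29.5% lower. Both probes of Dsc2, a desmosomal cadherin, were nearly level between crypt and middle villus and higher at the top. The brighter probe was at 11.62 in crypt, 11.48 in the middle and 12.98 at the top, and the dimmer at 7.73, 7.66 and 9.57. Their upper steps were 1.50 and 1.91. Jup (plakoglobin), the catenin shared by desmosomes and adherens junctions, was at 7.86, 8.30 and 9.34 and differed by 1.48 between top villus and crypt. Pkp3, a desmosomal plaque protein, was at 3.00, 2.46 and 7.44. Measured only at the top, it was at least 2.62-fold above the crypt and at least 9.78-fold above the middle. On the log2 scale the latter bound was 3.29, and 1.44 with a common dim level. Under quantile normalization both bounds were 2.49. Pkp4, a plaque relative that also binds cadherins of adherens junctions, was higher at the top on both probes. The brighter was at 7.74 in crypt, 8.52 in the middle and 9.79 at the top, and the dimmer at 2.81, 4.36 and 8.04. Their mean put the top at least 4.07-fold above the crypt, a log2 difference of 2.02 that was 2.65 under quantile normalization. The upper step of the mean was 2.48, but 1.27 on the brighter probe alone and 1.66 with a common dim level. Pkp2, the remaining plaque gene, was at 7.24, 8.08 and 7.11, within 2-fold in each comparison.

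The 2 gap junction genes differed from each other. Gjb2 encodes a connexin of many epithelia. It was at 10.78 in crypt, 2.76 in the middle and -1.67 at the top, and was at least 99.2-fold lower in the middle and at least 49.6-fold lower at the top. The dim level was higher at the top than in the middle, which makes the bound there smaller. As log2 differences the bounds were -6.63 for middle villus and -5.63 for top villus. With a common dim level both were -4.78, and under quantile normalization that in the middle was -5.65. Gjb1, a connexin of liver and other epithelia, was at 9.48, 10.02 and 9.10 and within 2-fold in each comparison.

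Of the 5 epithelial and stromal integrins compared 3 were higher at the top than in the crypt and none was lower, beside 23.9% and 39.5% of all named genes. Itgb6 pairs with the alpha v chain, binds fibronectin and activates latent TGF-beta. Its level was 7.02 in crypt, 6.82 in the middle and 11.36 at the top, so that crypt and middle differed by -0.19 and the top stood 20.3-fold above the crypt and 23.2-fold above the middle. Itga1, a collagen receptor chain, was at 9.10 in crypt, 9.88 in the middle and 10.68 at the top, 2.99-fold higher at the top with neither step called. Itga8, a chain of mesenchyme and smooth muscle, was at 0.07, 4.76 and 6.44. It was dim in crypt, and its upper step of 1.67 was within the limit with a common dim level (0.44) and 1.01 under quantile normalization. Top against crypt was at least 0.39, and at least 1.44 under quantile normalization. Itga7, the laminin receptor chain of muscle, was dim throughout.

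Genes known from hemidesmosomes, which anchor epithelial cells to laminin, did not share a course. Whether their products form such a structure in the jejunum was not tested. Itgb4, the signalling integrin chain, was at 11.78 in crypt, 12.33 in the middle and 13.45 at the top, 3.17-fold higher at the top than in the crypt. Its upper step of 1.12 was within the limit under quantile normalization (0.64). Itga6, the chain it pairs with, was at 7.10, 6.91 and 6.92 and lay within 2-fold in each comparison. The transmembrane collagen Col17a1 was at 6.13 in crypt, 10.05 in the middle and 8.72 at the top. It was 15.2-fold higher in the middle than in the crypt, and its crypt value lay just above the dim level of 6.05. It differed by -1.33 from middle to top and was still 6.04-fold above the crypt there. Under quantile normalization the log2 difference from crypt was 4.83 in place of 3.92 in the middle and 3.63 in place of 2.59 at the top. Plec, Cd151 and Dst, also known from hemidesmosomes, were picked from the list of integrin adaptors after their values were seen. At the top they differed from the crypt by 4.12, 2.32 and at least 2.78. Of 20 genes compared on that list 11 were higher and 4 lower, beside 23.9% and 39.5% of all named genes. The laminin receptor Dag1, on the same list, differed by -2.32.

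The 2 leukocyte integrins were higher or level towards the top. Itgb2, the shared chain of leukocyte integrins, was at 5.13 in crypt, 5.95 in the middle and 8.23 at the top, at least 4.53-fold above the crypt and 4.86-fold above the middle. Under quantile normalization its log2 difference from crypt was at least 3.26 in place of 2.18 at the top, and at least 1.22 in the middle, past the limit. Itgae, the chain by which intraepithelial lymphocytes bind E-cadherin, was at 8.30, 8.37 and 9.15 and within 2-fold in each comparison. Under median scaling its difference between top and crypt was 1.10, past the limit. Of the 7 leukocyte markers represented, 5 were higher at the top than in the crypt and 2 were lower. Ptprc, the pan-leukocyte phosphatase, was at least 6.09-fold higher and Gzma differed by 4.77, whereas Cd3g differed by -3.44 and Jchain by -6.84. The summed level of these 7 was 13.3 in crypt and 14.2 in both villus fractions, with 5 measured in crypt and 7 in each villus fraction. The equal sums hide opposite differences. From middle to top 4 of the 7 were higher and 2 lower, Jchain at -8.02 and Cd3g at -2.41. Over all named genes 29.5% were higher and 27.4% lower in that step. The part of leukocyte number in the Itgb2 difference was not tested.

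**Figure D2:**
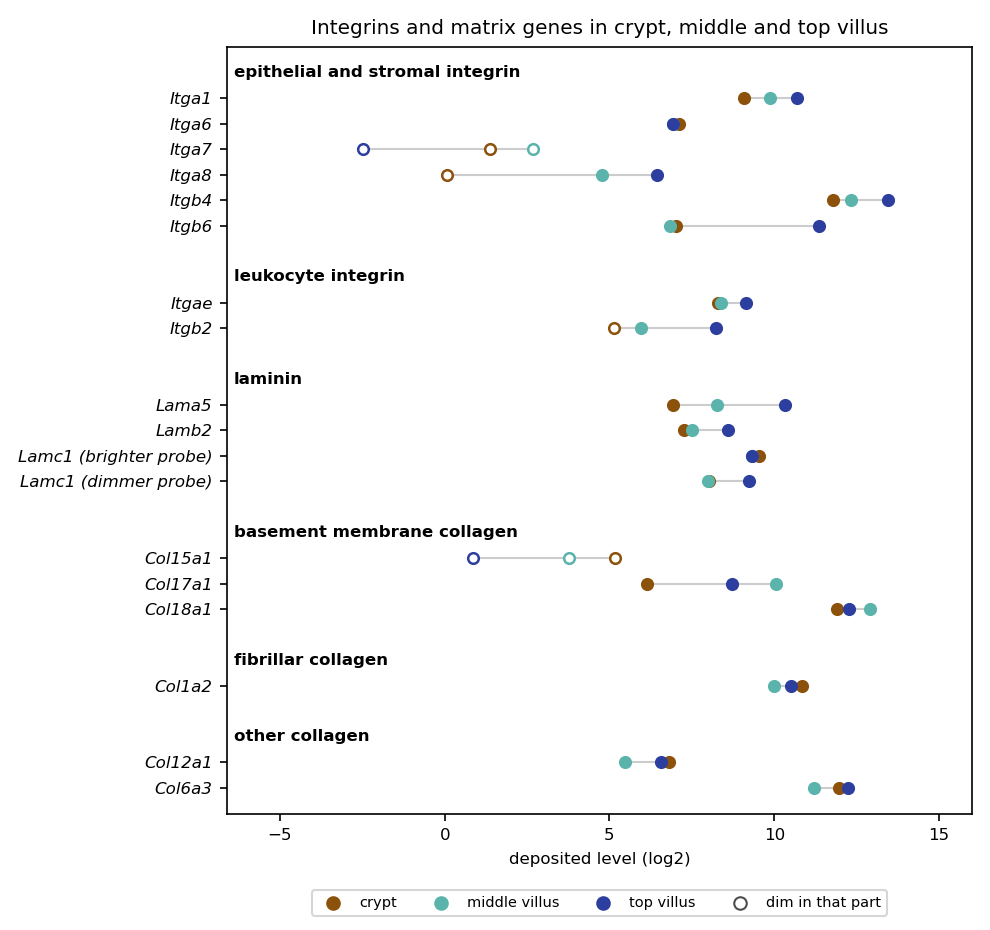
Deposited log2 levels of the integrins and matrix genes (x axis) by probe (y axis), with 1 point a part (crypt, middle and top villus); filled points were measured, open points were dim in that part. Itgb6 has crypt and middle villus together near 7 with the top at 11.36, Lama5 has 3 separate points in the order of the column, and Col17a1 is highest in the middle villus.

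Of the 3 laminins 2 were higher at the top than in the crypt, beside 23.9% of all named genes. Lama5, the alpha chain of the laminin that is prominent under villus epithelium, was at 6.92 in crypt, 8.25 in the middle and 10.34 at the top. Both steps were called, and the top was 10.7-fold above the crypt. Lamb2, a beta chain, was at 7.28, 7.50 and 8.60, 2.51-fold higher at the top, with the upper step of 1.11 called. Lamc1, the gamma chain shared by most laminins, gave different answers on its 2 probes. The dimmer probe was at 8.03 in crypt, 7.99 in the middle and 9.24 at the top, the brighter at 9.53, 9.34 and 9.34. Their differences between top and crypt were 1.21 and -0.19, and the mean of 0.51 was within the limit.

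The collagens showed no such order. Col18a1, a basement membrane collagen whose end fragment is endostatin, was at 11.90 in crypt, 12.92 in the middle and 12.28 at the top. Its lower step of 1.01 lay on the limit and was 0.99 under median scaling. Its upper step of -0.64 was -1.06 under quantile normalization, past the limit. Col1a2, a chain of fibrillar collagen, was at 10.84, 9.98 and 10.51 and within 2-fold in each comparison. Col12a1, which coats collagen fibrils, was at 6.82, 5.46 and 6.56, lower in the middle than in either other part, by 1.36 and 1.10 on the log2 scale. Both were within the limit under quantile normalization, where middle villus differed from crypt by -0.37 and top from middle villus by 0.70, and with a common dim level (-0.82 and 0.56). Col6a3, of the beaded microfibrils, was at 11.97, 11.20 and 12.25, and its upper step of 1.04 was within the limit under quantile normalization (0.82). Col15a1 was dim in every part. Fibroblast markers had a summed level of 10.4 in crypt, 10.2 in the middle and 10.0 at the top, with 4, 6 and 4 of 6 genes measured, and smooth muscle markers 12.1, 12.3 and 12.4, with 4, 4 and 5 of 5. Endothelial markers stood at 10.5, 10.5 and 11.3, with 3, 3 and 4 of 4 measured, and Cdh5 is on that list as well. Goblet cell markers stood at 14.1, 14.0 and 14.0, with 3, 3 and 2 of 3 measured. Among them Clca1 was at least 57.4-fold lower at the top than in the crypt, and no marker of enteric neurons and glia was represented. The part of stromal cell number in the collagen and laminin values was not tested.

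**Figure D3:**
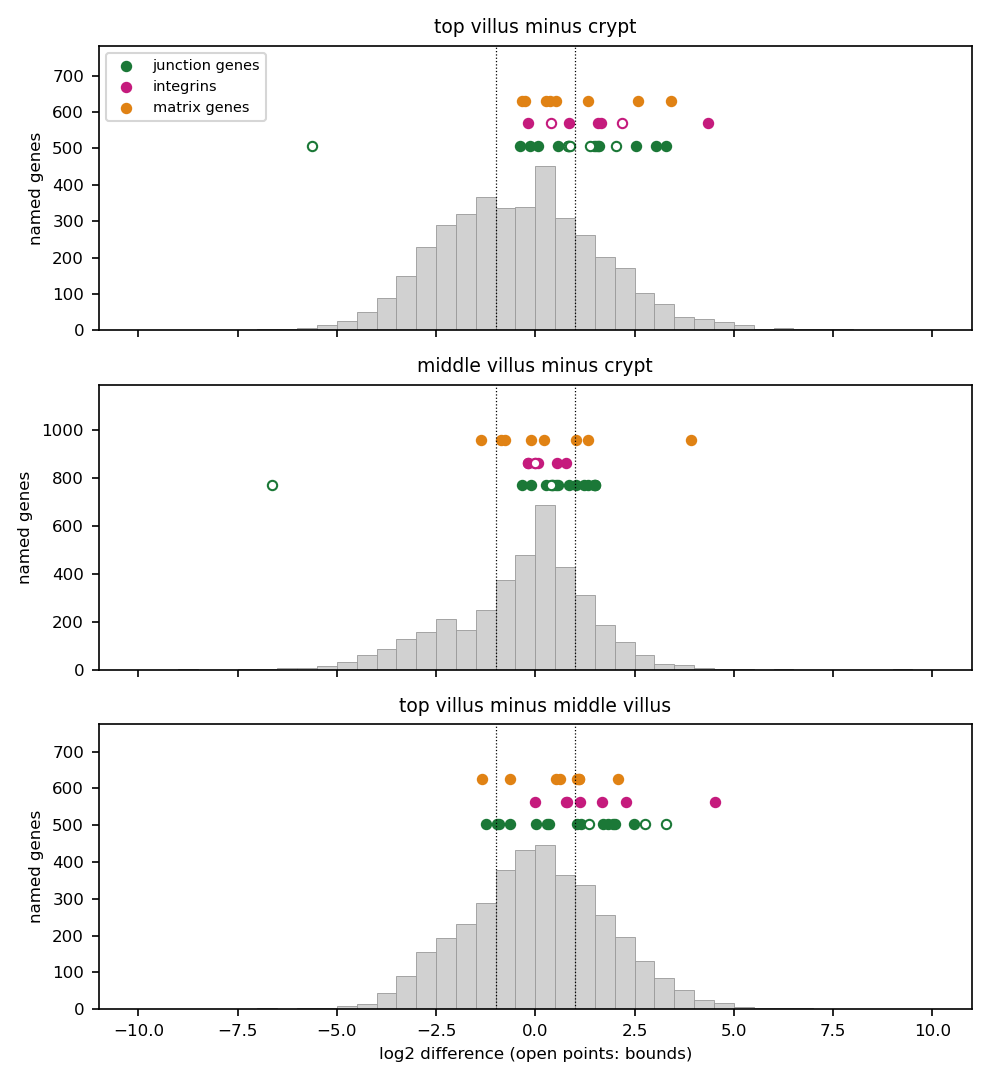
Histograms of the log2 difference over all named genes compared (y axis, number of genes) for top villus minus crypt, middle villus minus crypt and top villus minus middle villus, with the junction genes, integrins and matrix genes as points above (height has no scale for the points, open points are bounds, dotted lines mark 2-fold). In the first panel the points lie mostly right of the centre of the histogram, with Gjb2 alone far to the left at a bound of -5.63.

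Between crypt and middle villus fewer genes differed. Of 31 genes compared 9 were higher in the middle (29.0%), beside 19.1% of all named genes compared, and 2 were lower (6.45%), beside 29.5%. Under quantile normalization the counts were 11 and 1, beside 24.5% higher and 24.5% lower over all named genes. The 9 were the tight junction genes Cldn7, Cldnd1, F11r and Ocln, the cadherins Cdh1 and Cdh17, and the matrix genes Col17a1, Col18a1 and Lama5. None of the 7 integrins compared was called, with a range from -0.19 to 0.78. At 4-fold 1 was higher (Col17a1), beside 6.12%, and 1 was lower (Gjb2), beside 18.7%, and both lay beyond 2 SDs of the probe spread. The median log2 difference was 0.55 over the junction genes, 0.00 over the integrins, of which 2 entered as bounds at 0, and 0.05 over the matrix genes.

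Between middle and top villus 18 of 32 genes compared were higher at the top (56.3%), beside 29.5% of all named genes compared, and Ocln and Col17a1 were lower (6.25%), beside 27.4%. At 4-fold 7 were higher, beside 13.8%, and 0 lower, beside 13.7%. The 18 comprised 10 junction genes, 4 integrins and 4 matrix genes. Among them Ctnnd1, Pkp3 and Ctnna1 entered as bounds, with a probe measured at the top alone, and such genes could hardly be anything but higher. The median log2 difference was 1.04 over the 29 genes measured in both parts, against -0.01 over the 2905 of all named genes. It was 0.70 over the 14 junction genes measured in both parts (1.15 with the bounds), 1.12 over the integrins and 0.84 over the matrix genes. Median scaling moved the median of all named genes compared from 0.00 to 0.24. Dsc2, Itgb2, Itgb6 and Pkp4 lay beyond 2 SDs of the probe spread, and so did the bounds of Ctnnd1 and Pkp3. With a common dim level of log2 6 those bounds were 0.92 and 1.44, inside 2 SDs (2.09 for a gene with 1 probe). Lama5 (2.09) and Cldn7 (2.01) lay just inside 2 SDs as deposited.

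The shape along the whole column was read from the 3 differences together. Of the 33 genes measured in at least 1 part 12 stood 2-fold or more above both other parts at the top (36.4%), beside 14.3% of all such named genes. They were Cldn7, F11r, Tjp1, Dsc2, Jup, Pkp3, Pkp4, Itgb2, Itgb4, Itgb6, Lama5 and Lamb2. Of these Pkp3 was measured at the top alone, and the differences of Pkp4 and Itgb2 from crypt were bounds. None of the 33 stood below both other parts at the top, beside 18.7%. Gjb2 alone stood above both in the crypt (3.03%), beside 21.1%, and was measured only there. Pkp3 and Gjb2, measured in 1 part alone, could hardly stand highest in another. In 6 genes the crypt stood below both (18.2%), beside 10.8%, namely Cdh1, Cdh17, Cldn7, Col17a1, F11r and Lama5. Col17a1 and Ocln were above both in the middle (6.06%), beside 6.67%, and Col12a1 below both (3.03%), beside 8.47%. The comparisons share samples, so these shapes are not independent of the counts above. Cldn7, F11r and Lama5 were the genes with both steps called in the same direction as deposited. None of their single steps lay beyond 2 SDs of the probe spread, and the lower step of Cldn7 (1.03) lay close to the limit. Under quantile normalization the lower step of Tjp1 (1.13) also passed the limit.

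**Figure D4:**
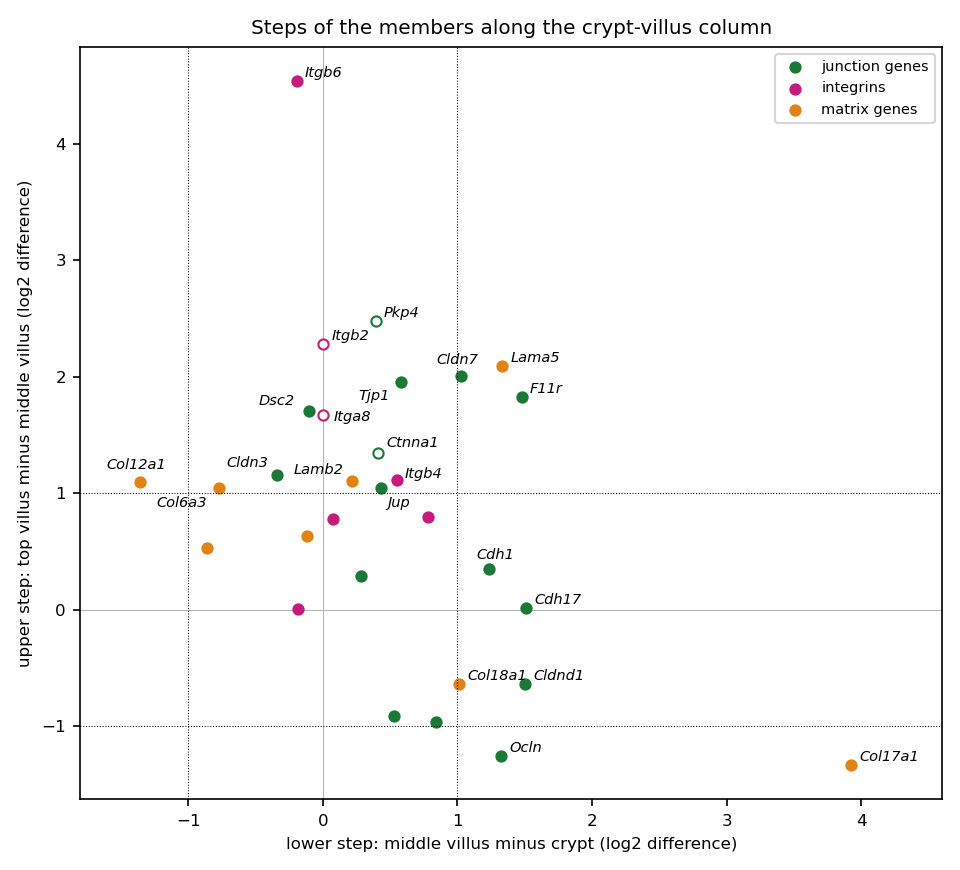
The log2 difference of the upper step, top villus minus middle villus (y axis), against that of the lower step, middle villus minus crypt (x axis), with 1 point for each gene compared in both steps (open points include a bound, dotted lines mark 2-fold, and genes called in either step are named). Itgb6 lies at the top left of the plot with no lower step (-0.19) and an upper step of 4.54, Col17a1 at the lower right with steps of 3.92 and -1.33, and Cldn7, F11r and Lama5 lie beyond 2-fold in both.

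The lists of other genes of these structures are read beside 23.9% higher and 39.5% lower over all named genes between top villus and crypt. There, 5 of 17 junction partners and polarity genes were higher and 6 lower, and their median log2 difference was -0.60. Integrin adaptors and focal adhesion genes had 11 of 20 higher and 4 lower, at a median of 1.08. The list of other matrix and matrix turnover genes had 7 of 23 higher and 6 lower, at a median of 0.23. Plec, the linker between integrins and intermediate filaments, the metalloprotease subunit Mep1a and the actin regulator Vasp had the greatest positive differences measured in both parts, at 4.12, 3.78 and 3.10. Ybx3, a Y-box factor known to bind Tjp1 at the tight junction, the protease Mmp10 and the laminin receptor Dag1 had the most negative, at -4.38, -2.59 and -2.32.

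Over all named genes 19.1% were higher and 29.5% lower in the lower step. There 2 of 17 junction partners were higher and 5 lower, 7 of 21 integrin adaptors were higher and 4 lower, and 4 of 22 other matrix genes were higher and 3 lower. Mep1a (3.44), the tetraspanin Cd151 (1.53) and Lsr (1.33), which recruits tricellulin to tricellular contacts, led the positive side. The matrix Gla protein Mgp (-3.86), Ybx3 (-3.13) and the desmosomal plakin Evpl (-2.98) led the negative side. In the upper step the same lists had 6 higher and 4 lower of 17, 9 and 5 of 22, and 6 and 4 of 22, beside 29.5% higher and 27.4% lower over all named genes. The junctional adhesion molecule Jam2 (3.54), Plec (2.93) and the adhesion kinase Ptk2b (2.74) were then the most positive of those measured in both parts. Mmp10 (-3.04), the syndecan Sdc1 (-2.03) and the elastic fibre glycoprotein Emilin1 (-1.88) were the most negative. Dcn, Fbln1 and Sparc stand on both the matrix and the fibroblast list.

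The genes kept apart from the junction, integrin and matrix classes went other ways. Ctnnbl1, a protein associated with the spliceosome, was at 6.91 in crypt, 8.20 in the middle and 2.22 at the top, at least 8.28-fold lower at the top than in the middle. That bound was -3.05 on the log2 scale, and -2.20 with a common dim level. The bound for top against crypt was -1.77, and -0.91, within the limit, with a common dim level. Itgb1bp1, which binds the tail of the beta chain shared by many integrins, was at 8.50, 6.84 and 7.37. It differed by -1.14 between top and crypt, and by -0.96 under quantile normalization and -0.89 under median scaling. Ctnnbip1, an inhibitor of beta-catenin, was at 8.62, 9.24 and 9.14 and within 2-fold in each comparison.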

How the data were processed

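RNA of the jejunal fractions was amplified linearly and labelled, per the labels' protocols, which name both Cy3 and Cy5. The authors deposited a table of 3 columns, 1 per part, read here from the values as log2 (highest value 15.997, just under 16). Neither the channel nor the normalization behind them is stated there, and the columns' lower quartiles differ. In top villus 13 cells are empty. The 3 scanner files (ScanArray Express 2.00 and LOWESS, per the file headers) were not used, since none of their 22575 spots has a name or ID and none is tied to a part. Arrays have no read depth, and their number limits the precision.

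Probes took the 1 symbol of the platform annotation, checked through Entrez identifiers against RefSeq (all 44 member probes found, 0 changed). The array's own genome build is unstated. Deposited values were compared without scaling. Values below the lowest 25% of a column were set to that level, a bound could not pass 0, probes dim in both parts were left out, and probes of a gene were averaged, with the probe SD divided by the square root of their number. Genes were named with all 3 values when called at 2-fold in at least 1 comparison. Of other list genes up to 3 of each sign measured in both parts were named per comparison. Cd151 and Dst, for top villus against crypt, and single cell type markers were named outside this rule. Members and lists were chosen with earlier results of these data known. With 1 sample per part there was no test. The steps were tested on simulated data. The alternatives tried were 4-fold, the brightest probe, a common dim level of log2 6, no detection filter, median scaling and quantile normalization. Python 3.11.15, numpy 2.4.6, pandas 2.3.3 and matplotlib 3.10.9 were used.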

Additional observations from a re-analysis of the deposited data

How the results depend on the processing

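No paired analysis was possible because each part had 1 sample, and for the same reason no sample could be left out. Of the called differences of the 40 genes, 17 of 19 between top villus and crypt, 11 of 13 in the lower step and 13 of 21 in the upper step were called the same way under a common dim level of log2 6, the brightest probe, no detection filter, median scaling and quantile normalization. Differences called only under an alternative are not among them. No called difference changed sign under these 5 alternatives, and the medians of the 3 classes moved by less than 1 SD of the probe spread. At 4-fold the 16, 9 and 18 genes higher became 8, 1 and 7, and the 2 and 2 lower in the lower and upper step became 1 and 0. The 16 became 20 under quantile normalization, beside 30.2% of all named genes, and 20 under median scaling, beside 27.5%. The 18 became 14 under quantile normalization, beside 25.2%, and 15 with a common level, beside 22.1%. Under median scaling they became 20, beside 34.5%. Without a detection filter 5, 5 and 7 genes of 37 were lower, against 1, 2 and 2, since dim values then enter as measured. In the lower step 1 gene was lower under quantile normalization and 1 with a common level of log2 6, and in the upper step 1 under median scaling. A difference against a dim value is a bound only, and the number of arrays limits every value.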
